A study of Mus musculus with 16 samples.

Results

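Wild-type male C57BL/6 mice, 10 weeks old, had the left anterior descending coronary artery closed for 30 min and then reopened, and RNA of the heart was measured on arrays. The 12 arrays compared here came from hearts taken after 6, 24 or 72 h of reperfusion, 4 per time, out of 16 in the series, and the 4 remaining arrays came from sham-operated hearts. Each gene was given 1 contrast, its mean on the 4 arrays at 24 h minus the average of its 6 h and 72 h means, so that the first day was set against an earlier and a later time and sham entered only the estimate of spread. The sham labels give no hour after surgery and the labels give no clock time, so a difference between times can hold the time since surgery and the hour of the day as well as reperfusion. All RNA came from hearts, and fewer cells of a type and less RNA per cell cannot be told apart in it.

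Reopening a blocked coronary artery is followed by an ordered sequence: stress hormones and immediate early genes act first, neutrophils and then monocytes enter, dying muscle is cleared, and fibroblasts later lay down scar. Surviving cardiomyocytes meanwhile carry a higher load, switch on fetal and stretch genes, change their ion channels and turn down fuel oxidation. A sample on the first day lies between the early stress phase and the phase of proliferation and scar formation.

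Values are log2 signals as deposited, and a contrast is a difference of mean log2 signals ± its SE. A gene rose or fell if its p from limma's moderated test, adjusted over 19505 genes, was below 0.05. The deposited values reach 19.82, above the range of a scanner's log2 intensity, so folds hold on the authors' scale. Below background means under 6.76, which is the 75th percentile over negative controls. All 12 measured cardiomyocyte markers lay above it, with a median sham level of 17.64.

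The contrast was higher at 24 h for 2101 genes, or 10.8% of those tested, and lower for 1321, or 6.77%. A gene that climbs after 6 h and stays up also has a high contrast, so a peak was counted only where the contrast, 24 h minus 6 h and 24 h minus 72 h were each above 0 and past the threshold, and a dip where all 3 were below it. The peak class held 554 genes, 2.84% of those tested, and the dip class 351, or 1.80%. Of the genes tested, 10381 had every group mean below background. The 9124 others, tested alone, gave 2198 higher and 1324 lower genes, 671 peaks and 402 dips. These are larger shares than over all genes, and most members of many lists below are among such brighter genes. The 24 h arrays lay above all 8 arrays at 6 and 72 h in 551 genes (2.82%) and below them in 344 (1.76%), with 367 of the former in the peak class (1.88% of genes tested) and 255 of the latter in the dip class (1.31%). Both differences use the same 24 h arrays. Of all genes, 17.3% were higher and 10.9% lower at 24 h than at 6 h, and 6.07% and 6.85% than at 72 h. Of the 2101 higher genes, 1259 passed against 6 h alone and 262 against 72 h alone. Of the 1321 lower genes, 612 passed against 6 h alone and 332 against 72 h alone. The mean of the 24 h group was not the highest of the 3 times in 223 of the higher genes and not the lowest in 211 of the lower genes.

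**Figure D1:**
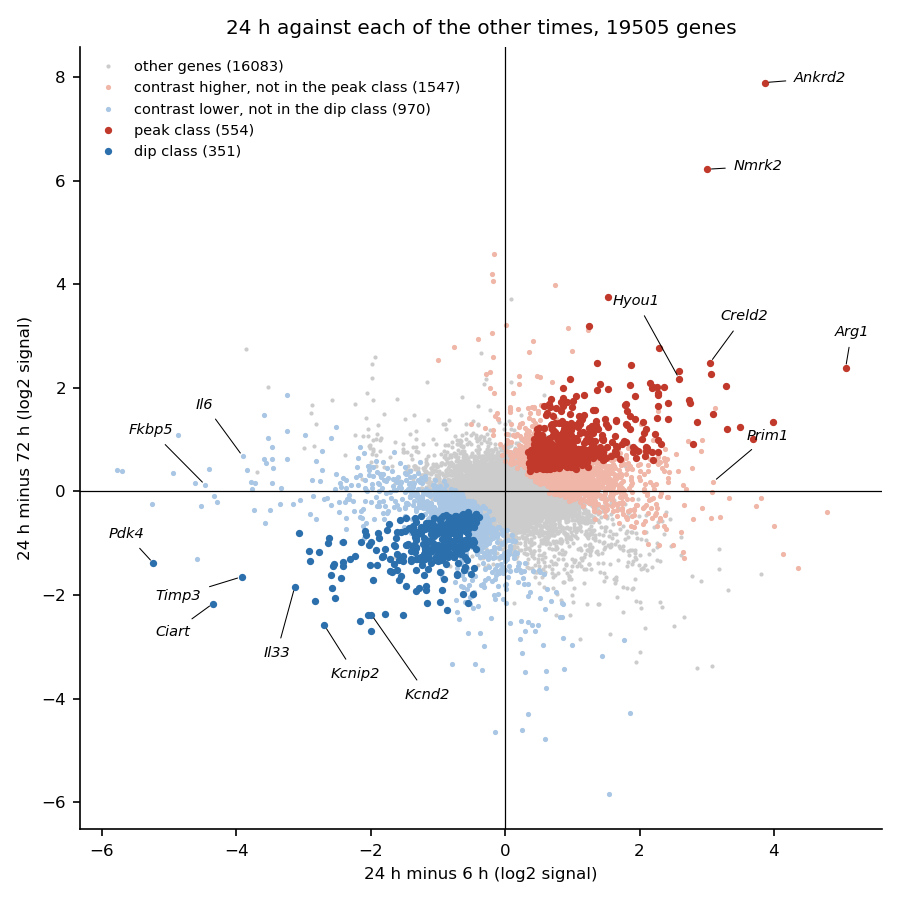
Each point is 1 of 19505 genes, placed by its 24 h minus 6 h difference (x axis, log2 signal) and its 24 h minus 72 h difference (y axis, log2 signal); both axes contain the same 24 h arrays. The 554 genes of the peak class fill the upper right and the 351 of the dip class the lower left, with Ankrd2 and Nmrk2 far from the rest, while Prim1 and Il6 differ from 6 h alone.

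Against sham, 7.92% of all genes were higher and 12.3% lower at 6 h, 13.8% and 12.3% at 24 h, and 11.5% and 10.3% at 72 h. The 24 h mean lay above the sham mean for 534 of the 554 peaks and below it for 329 of the 351 dips. The sham mean was below all 3 times in 203 peaks and above all 3 in 197 dips, so that in the others at least 1 of the outer times reached the sham level or passed it. In the peak class 508 genes reached background in at least 1 group, and in the dip class 314 did. The median contrast was 0.82 in the peak class and -0.95 in the dip class, and 90 peaks and 97 dips differed from both times by at least 2-fold. Replicate 17 was the 24 h array nearest to the other times in 390 of the 554 peaks (70.4%) and in 162 of the 351 dips (46.2%). Without it the peak class held 828 genes and the dip class 427, and without replicate 15 of the 24 h group they held 326 and 230. Centring on the hybridization spike-ins gave 342 peaks and 175 dips, and centring on the poly-A spike-ins 250 and 282.

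The largest peaks and dips were named only among genes whose 24 h arrays did not overlap those at 6 and 72 h. The 2 largest peaks were muscle genes. Ankrd2, an ankyrin repeat protein of the sarcomere that responds to stretch, was at 4.88, 3.59, 3.78 and 3.66 on the sham arrays, at 6.69, 10.28, 8.94 and 7.35 at 6 h, at 11.49, 12.87, 12.90 and 11.47 at 24 h and at 4.46, 4.02, 4.34 and 4.33 at 72 h. Every 24 h array was above every other array, the 6 h arrays were spread in between, and sham and 72 h were both below background. Its contrast was 5.88 ± 0.48 (adjusted p = 3.04e-07), with 24 h above 6 h by 3.87 and above 72 h by 7.89. Nmrk2, a kinase that turns nicotinamide riboside into a precursor of NAD, was at 5.63 to 6.74 in sham, 8.31 to 11.73 at 6 h, 11.82 to 13.09 at 24 h and 6.30 to 6.84 at 72 h. Its highest 6 h array was just below its lowest 24 h array, and at 72 h it was back at the sham level (0.31 above it, adjusted p = 0.70). The contrast of Nmrk2 was 4.61 ± 0.41 (adjusted p = 7.38e-07).

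Of 20 fetal and stretch response genes, 12 rose, 2 fell and 7 were in the peak class, with a median contrast of 1.09 against -0.02 over all genes. Fhl1, a LIM domain protein of the sarcomere, had means of 14.47 in sham, 17.62 at 6 h, 18.88 at 24 h and 15.68 at 72 h, and its 24 h arrays (18.44 to 19.20) lay above the 6 h arrays (17.43 to 17.90). Nes, the intermediate filament protein nestin, showed another course: it was below background in sham, at 6 h and at 72 h (5.98, 5.38 and 6.21) and reached 7.63 at 24 h, a contrast of 1.84 ± 0.26. The skeletal actin gene Acta1 (1.73 ± 0.28), the slow myosin gene Myh7 (1.16 ± 0.21) and Csrp3 (0.84 ± 0.12), a LIM protein of the Z-disc, completed the peak class of this list. Xirp2, an actin-binding protein of the intercalated disc, rose in the contrast (1.85 ± 0.33) and lay above 72 h by 2.71, while its difference from 6 h was 0.99 with an adjusted p of 0.057. The 2 members that fell were Mustn1 and Xirp1, with contrasts of -1.01 and -0.69. The mean of the list on single arrays was 1.30 to 1.77 above sham at 6 h, 1.76 to 2.53 at 24 h and 0.00 to 0.61 at 72 h, so the 6 h and 24 h arrays touched.

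**Figure D2:**
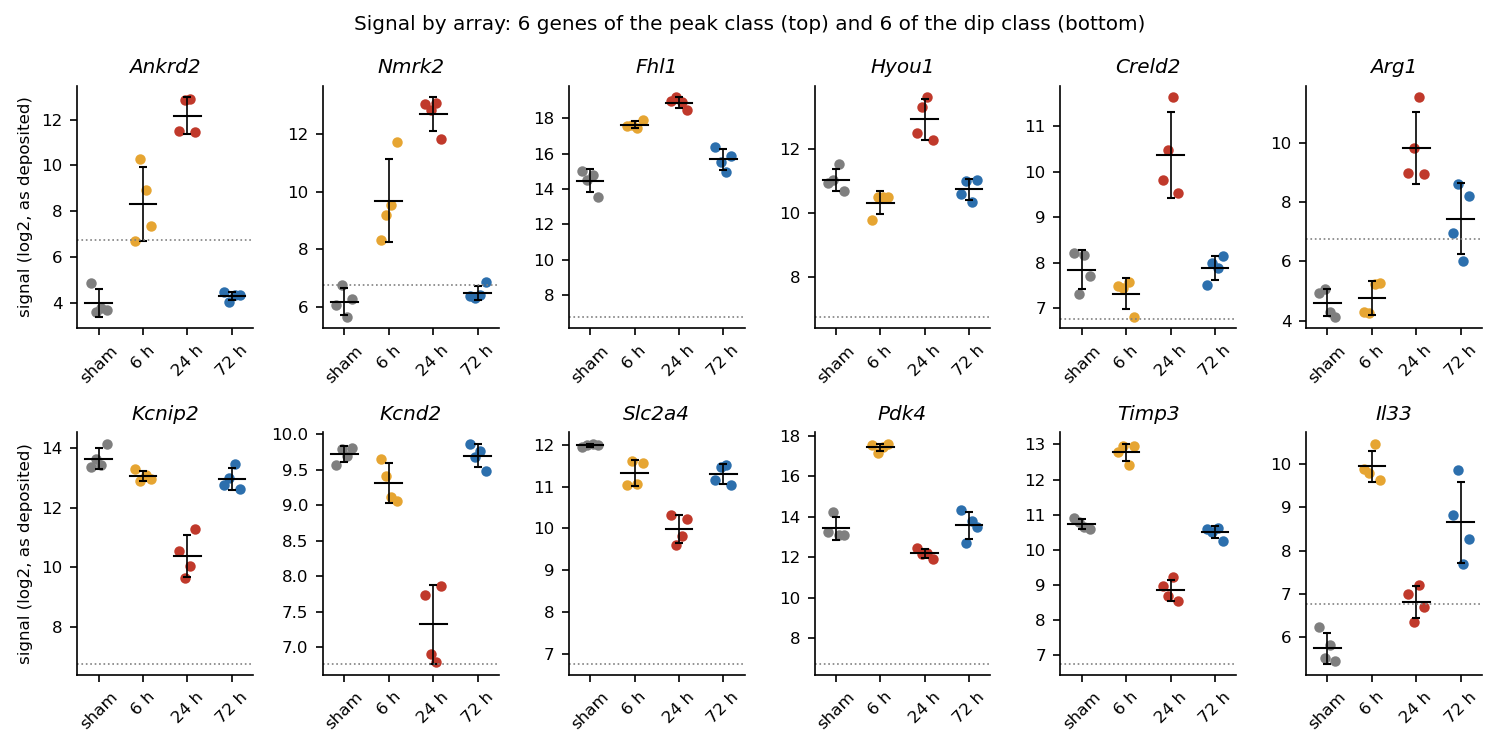
Log2 signal (y axis, as deposited) on each of the 4 arrays of sham, 6 h, 24 h and 72 h for 6 genes of the peak class (top row) and 6 of the dip class (bottom row); points are arrays, long bars means, error bars SD (n = 4), and the dotted line marks 6.76. In each panel the 4 arrays at 24 h lie above or below all 8 arrays at 6 and 72 h. Except for Fhl1, Slc2a4 and Pdk4, this separation was a condition for being named among the largest peaks and dips. The place of sham differs between panels: next to 72 h for Ankrd2, next to both outer times for Kcnd2 and below all times for Il33.

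Among the lists examined, genes of protein folding in the endoplasmic reticulum had the largest share of members in the peak class. The lists were chosen with earlier results of these data known, so this ranking holds for these lists only. The unfolded protein response is the programme by which cells raise the reticulum's chaperones and folding enzymes when unfolded protein accumulates there. Of 15 measured genes of this list, 13 rose, 0 fell and 10 were in the peak class (Hspa5, Hsp90b1, Dnajb9, Dnajb11, Sdf2l1, Creld2, Pdia6, Calr, Hyou1 and Xbp1), and the median contrast was 1.10. Leaving out any single array, or another scaling, moved neither count by more than 1.5 times. Creld2, a secretory pathway protein induced by reticulum stress, was at 8.20, 7.30, 8.16 and 7.71 in sham, 7.47, 7.43, 7.56 and 6.80 at 6 h, 9.81, 10.48, 11.64 and 9.53 at 24 h and 7.51, 8.00, 7.87 and 8.15 at 72 h. Only the 24 h arrays stood out, and sham, 6 h and 72 h overlapped. Its contrast was 2.77 ± 0.29 (adjusted p = 3.74e-06).

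Hyou1, a large chaperone of the HSP70 family, was at 10.68 to 11.51 in sham, 9.77 to 10.50 at 6 h, 12.26 to 13.60 at 24 h and 10.34 to 11.02 at 72 h. The contrast of Hyou1 was 2.38 ± 0.23 (adjusted p = 1.85e-06), and the 6 h arrays were all below the sham arrays, a difference whose adjusted p was 0.071. Sdf2l1, a reticulum protein that works with a DnaJ cochaperone, was below background in sham, at 6 h and at 72 h (5.35, 5.22 and 5.60) and at 7.50 at 24 h. Pdia6, a disulfide isomerase, had a contrast of 1.60 ± 0.20, with means of 12.73 in sham, 12.48 at 6 h, 14.55 at 24 h and 13.42 at 72 h. Its relative Pdia3 rose in the contrast (1.27 ± 0.18) but at 72 h was within 0.53 of the 24 h mean (adjusted p = 0.11). Spcs3, a subunit of the signal peptidase that trims proteins entering the reticulum, was not on the list and was among the 15 largest peaks, with means of 10.64 in sham, 11.26 at 6 h, 13.63 at 24 h and 11.62 at 72 h.

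Hspa5, the chaperone BiP that holds the stress sensors of the reticulum inactive, and Hsp90b1, its partner GRP94, are described for their promoters, rather than for the size of their contrasts. Hspa5 was at 17.61 to 18 in sham, 17.51 to 17.75 at 6 h, 18.22 to 19.00 at 24 h and 16.71 to 17.36 at 72 h. The 24 h arrays were the highest and the 72 h arrays were below all sham arrays, and the contrast was 1.23 ± 0.15 (adjusted p = 1.96e-05). Hsp90b1 was at 16.09 to 16.42 in sham, 15.61 to 15.83 at 6 h, 16.45 to 17.48 at 24 h and 15.66 to 16.23 at 72 h, with a contrast of 1.10 ± 0.16. Xbp1, a transcription factor of the response, took another course before 24 h: its arrays were at 12.78 to 13.45 in sham, already at 13.86 to 14.09 at 6 h, at 14.21 to 15.04 at 24 h and at 13.23 to 13.60 at 72 h. Herpud1, which takes part in reticulum-associated degradation, had a contrast of -0.25 ± 0.18 (adjusted p = 0.42) and Dnajc3, an inhibitor of the kinase PERK, one of 0.43 ± 0.18 (adjusted p = 0.10).

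The chaperone promoters are printed because the response has a known binding element, the ER stress response element (ERSE), searched here on both strands as CCAAT and CCACG with 9 bases of any kind between them; every match also holds the CCAAT box. In windows from 250 bases before to 50 after the RefSeq start sites (GRCm38.p6), it was found in 6 of the 14 list genes with a promoter (42.9%), in 0.2% of 15691 genes tested that have one, in 1.3% of the peak class and in 0.0% of the dip class. A gene was counted if any of its listed start sites had a match. The 6 were Hspa5, Hsp90b1, Creld2, Pdia6, Calr and Dnajc3, of which the first 5 were in the peak class. These 5 are also most of the 6 genes behind the share of the peak class. The list was made of known genes of the response, so its high share follows in part from that choice. The CCAAT box alone was in 92.9% of the list, 42.2% of all genes, 46.0% of the peak class and 44.4% of the dip class. The 250 bases before the start are given 5′ to 3′ on the gene's strand with the ERSE in capitals. The first base of the match lies at -65 from the start in Hspa5, -126 in Creld2, -98 in Pdia6, -162 in Calr and at -212 and -107 in Hsp90b1, which has 2. A match is a description of these letters and not a measured binding site.
Hspa5 (chr2:34771840-34772089, plus strand): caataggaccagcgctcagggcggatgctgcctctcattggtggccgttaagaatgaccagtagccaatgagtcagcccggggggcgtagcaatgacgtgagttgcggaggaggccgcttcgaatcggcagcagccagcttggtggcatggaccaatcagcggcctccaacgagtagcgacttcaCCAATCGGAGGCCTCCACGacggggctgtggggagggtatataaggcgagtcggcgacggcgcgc
Creld2 (chr15:88819396-88819645, plus strand): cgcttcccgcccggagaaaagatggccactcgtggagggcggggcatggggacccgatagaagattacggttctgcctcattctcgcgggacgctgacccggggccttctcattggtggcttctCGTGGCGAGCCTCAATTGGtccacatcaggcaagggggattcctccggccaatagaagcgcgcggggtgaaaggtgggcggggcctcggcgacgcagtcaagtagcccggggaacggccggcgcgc
Pdia6 (chr12:17266339-17266588, plus strand): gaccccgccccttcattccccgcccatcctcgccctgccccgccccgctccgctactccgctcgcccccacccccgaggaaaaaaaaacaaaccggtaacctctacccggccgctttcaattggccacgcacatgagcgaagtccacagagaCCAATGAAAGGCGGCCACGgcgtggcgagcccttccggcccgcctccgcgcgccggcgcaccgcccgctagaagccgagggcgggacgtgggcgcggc
Calr (chr8:84846932-84847181, minus strand): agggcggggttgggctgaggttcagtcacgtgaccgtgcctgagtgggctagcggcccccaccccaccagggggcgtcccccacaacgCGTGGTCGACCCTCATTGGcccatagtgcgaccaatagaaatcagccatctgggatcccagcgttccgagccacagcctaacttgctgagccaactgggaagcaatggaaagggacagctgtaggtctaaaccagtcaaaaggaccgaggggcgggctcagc
Hsp90b1 (chr10:86705445-86705694, minus strand): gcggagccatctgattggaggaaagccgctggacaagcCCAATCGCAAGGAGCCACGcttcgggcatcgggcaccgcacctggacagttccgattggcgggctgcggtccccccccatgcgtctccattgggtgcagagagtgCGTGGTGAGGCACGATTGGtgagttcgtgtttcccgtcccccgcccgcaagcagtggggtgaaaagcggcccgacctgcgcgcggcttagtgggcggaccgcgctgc

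**Figure D3:**
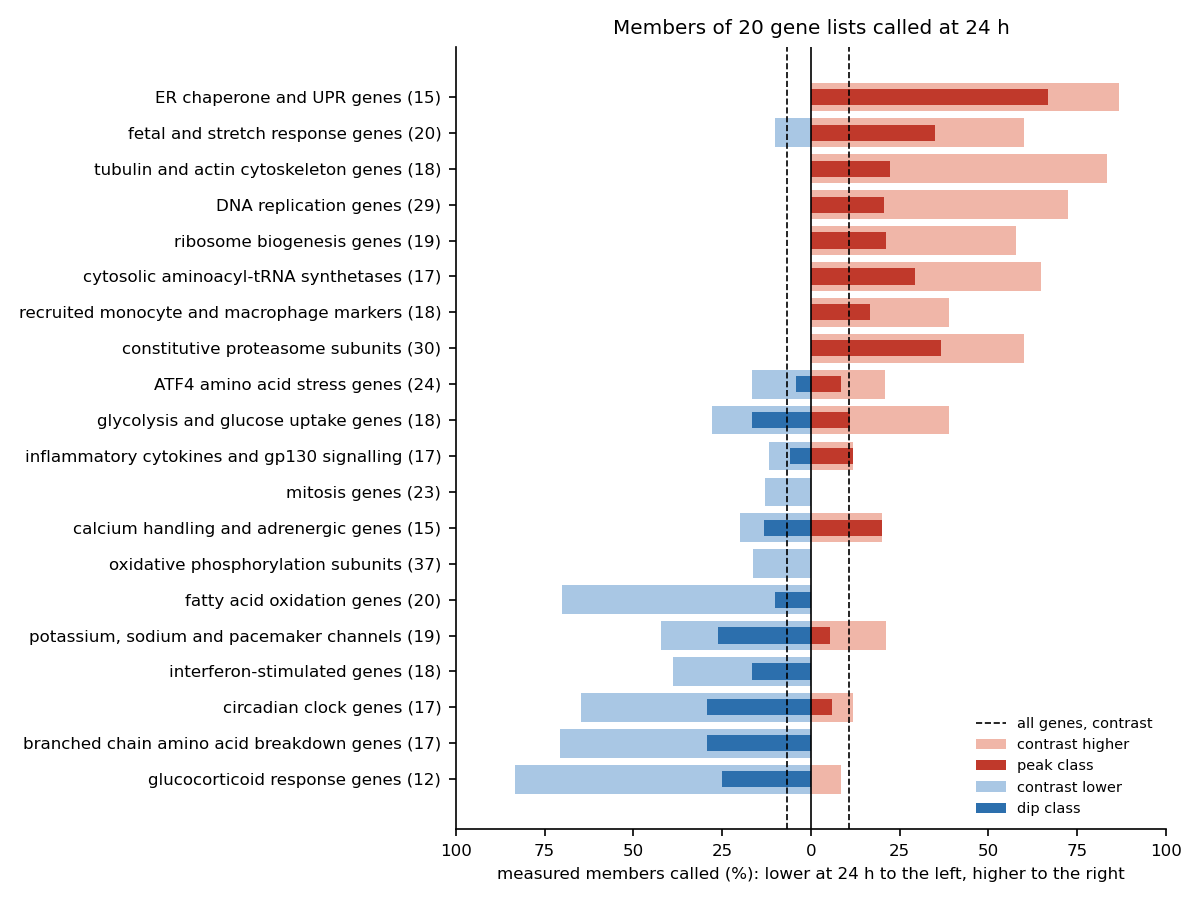
Share of the measured members of 20 gene lists (percent, number of measured members in parentheses) whose 24 h contrast was higher (pale red) or lower (pale blue), with the peak class (dark red) and dip class (dark blue) drawn over them; dashed lines are the shares over all genes, 10.8% and 6.77%. All genes include 10381 with every group mean below background, so the dashed lines lie under the shares among brighter genes. Of the 15 reticulum genes 10 are peaks, while fatty acid oxidation and clock genes lie on the lower side and calcium handling genes on both.

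Genes of protein synthesis and breakdown also rose at 24 h, by smaller amounts. Of 30 measured subunits of the constitutive proteasome, which degrades ubiquitinated protein, 18 rose, 0 fell and 11 were in the peak class, with a median contrast of 0.42. Psmd14, the deubiquitinase of the lid, was at 10.22 to 10.45 in sham, 10.14 to 10.59 at 6 h, 10.71 to 11.64 at 24 h and 10.17 to 10.55 at 72 h, a contrast of 0.86 ± 0.15. The 24 h arrays did not overlap the others, with replicate 17 the closest to them at 10.71. Psma5 (0.82 ± 0.14), Psmc4 (0.75 ± 0.16) and Psmd3 (0.66 ± 0.15) were peaks too, while Psma3 rose (0.67 ± 0.16) with a difference from 6 h of 0.46 (adjusted p = 0.066). These sizes lie near the shifts between scalings: the constitutive proteasome subunits gave 7 peaks under median centring, 4 under hybridization spike-in centring and 2 under poly-A centring, where 11 rose, 7 without replicate 11 of the 6 h group or replicates 14 or 15 of the 24 h group, and 6 without replicate 16. Under every setting the median contrast of the list stayed between 0.38 and 0.60.

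Of 17 measured cytosolic aminoacyl-tRNA synthetases, which charge tRNAs with amino acids, 11 rose, 0 fell and 5 were peaks (Rars, Yars, Hars, Iars and Lars). Rars, the arginine enzyme, was at 11.82 to 12.09 in sham, 12.09 to 12.35 at 6 h, 12.38 to 13.40 at 24 h and 11.59 to 12.23 at 72 h, and its contrast was 0.95 ± 0.17. Replicate 17 was again the 24 h array nearest to 6 h. Mars1 (0.84 ± 0.21) and Cars (0.73 ± 0.22) rose without passing both pairwise tests, and the rise of Cars was lost without replicate 15 or 16 of the 24 h group. Without replicate 15 the list had 6 rises and 2 peaks, without replicate 16 it had 7 and 3, and without replicate 17 it had 10 peaks; 3 peaks were left without replicate 8 of the 6 h group or replicate 23 of the 72 h group, and 3 under either spike-in centring. Of 19 ribosome biogenesis genes, 11 rose, 0 fell and 4 were peaks. The mean of this list was already 1.01 to 1.09 above sham at 6 h, against 0.58 to 1.49 at 24 h, and at most 0.24 above it at 72 h, so most of its high contrast was a difference from 72 h (a median of 0.90, and 0.21 from 6 h). Nop16, a nucleolar assembly factor, had means of 8.89 in sham, 9.76 at 6 h, 10.63 at 24 h and 8.98 at 72 h (contrast 1.26 ± 0.20). Rrp12, which serves the maturation and export of ribosomal subunits, was at 10.11 at 6 h, 9.93 at 24 h and 7.33 at 72 h, with 7.45 in sham. The ribosome biogenesis list had 8 peaks without replicate 17 of the 24 h group and 8 under hybridization spike-in centring.

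Targets of ATF4, the transcription factor of the amino acid arm of the stress response, did not move one way. Of 24 measured, 5 rose, 4 fell, 2 were peaks and 1 was a dip, and the median contrast was 0.12. Over all genes 10.8% rose and 6.77% fell, and of the 9124 genes that reached background 2198 rose and 1324 fell when tested alone. The rises and falls of the list lie near the shares of these brighter genes. Psat1, an enzyme of serine synthesis, had means of 5.93 in sham, 7.65 at 6 h, 9.51 at 24 h and 7.45 at 72 h (contrast 1.96 ± 0.31, adjusted p = 0.000254). Mthfd2, of mitochondrial one-carbon metabolism, had means of 5.20, 6.26, 7.76 and 6.46 in the same order and a contrast of 1.40 ± 0.24. Aldh18a1, of proline synthesis, rose by 1.05 ± 0.25, and the amino acid transporter gene Slc7a5 rose by 0.89 ± 0.30 (adjusted p = 0.043), a call lost under quantile normalization, under median centring, with the 12 reperfused arrays alone, and without any 1 of replicates 2 and 4 of sham, 7, 8 and 10 of the 6 h group, 14, 15 and 16 of the 24 h group or 20 and 22 of the 72 h group. Vldlr, the very low density lipoprotein receptor, was the dip of the list: it was at 14.61 to 14.93 in sham, 13.93 to 14.07 at 6 h, 12.61 to 12.74 at 24 h and 13.87 to 14.14 at 72 h. The arrays of each time lay close together and its contrast was -1.29 ± 0.11 (adjusted p = 3.04e-07). Stc2, Nupr1 and Chac1 fell as well, and the stress factors Ddit3 (0.29 ± 0.22) and Atf4 (-0.33 ± 0.24) did not pass. Without replicate 15 of the 24 h group, 3 ATF4 genes rose and 2 fell, without replicate 16 the rises were 3, and under hybridization spike-in centring 8 rose and 2 fell.

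Cytoskeletal genes rose widely. Of 18 measured tubulin and actin genes, 15 rose, 0 fell and 4 were peaks, and the median contrast was 0.96. Tubb2a, a beta tubulin, was at 7.25 to 8.05 in sham, 7.82 to 8.66 at 6 h, 10.71 to 11.40 at 24 h and 8.56 to 9.94 at 72 h (contrast 2.26 ± 0.22, adjusted p = 1.6e-06). Its neighbour in the family Tubb2b moved alike from means below background at the other times (4.55 in sham, 5.28 at 6 h, 7.70 at 24 h, 5.99 at 72 h), and probes of close tubulin copies can share signal. Capg, an actin capping protein of macrophages, was a peak (1.44 ± 0.22), and Tubb5 (1.40 ± 0.20) and Tubb6 (1.35 ± 0.33) rose, Tubb6 no longer past the threshold without replicate 15 of the 24 h group. The tubulin and actin list had 9 peaks without replicate 17.

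Among the 15 largest peaks outside these lists, Msn, the moesin that ties actin to the cell membrane, was at 10.29 to 10.73 in sham, 11.29 to 12.13 at 6 h, 12.63 to 14.88 at 24 h and 11.24 to 12.17 at 72 h. Rtn4, a reticulon that shapes reticulum tubules, had means of 12.13 in sham, 13.73 at 6 h, 15.99 at 24 h and 13.97 at 72 h. Both outer times lay above sham for these genes, and 24 h lay above both. Pdpn, the membrane glycoprotein podoplanin of lymphatic vessels and activated stromal cells, followed the same order with means of 7.37, 9.58, 11.51 and 9.67, and Baalc the same with 5.15, 5.97, 8.24 and 6.39. Dok2, a docking adaptor of blood cells, went from 6.97 in sham and 7.88 at 6 h to 10.47 at 24 h and 8.15 at 72 h (contrast 2.46 ± 0.25). Ppp1r14b, an inhibitor of protein phosphatase 1, and the tetraspanin gene Tspan9 had contrasts of 2.13 ± 0.20 and 2.16 ± 0.22, and their outer times did not differ from sham past the threshold. Inpp5j, a phosphoinositide phosphatase, was lower than sham at 6 h (6.76 against 8.54) and higher at 24 h (10.05), with 8.01 at 72 h, and its contrast was 2.67 ± 0.20 (adjusted p = 1.3e-07). In 14 of the 15 largest peaks, replicate 17 was the lowest of the 24 h arrays.

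Genes of DNA replication were high at 24 h while those of mitosis were higher at 72 h. Cells copy DNA before they divide, with origin licensing and fork proteins under the control of E2F factors. Of 29 measured replication genes, 21 rose, 0 fell and 6 were peaks (Mcm2, Mcm3, Mcm6, Pcna, Uhrf1 and Rfc4), with a median contrast of 0.77, and 16 were below background in every group. Of 23 mitosis genes, 0 rose, 3 fell and 0 were in either class, with a median contrast of -0.09; the 3 became 6 without replicate 14 of the 24 h group and 1 without replicate 15 or replicate 16. The mean of the replication list on single arrays was -0.14 to -0.01 relative to sham at 6 h, 0.93 to 1.50 at 24 h and 0.61 to 1.21 at 72 h, and that of the mitosis list was -0.28 to 0.09, 0.45 to 1.74 and 2.05 to 3.24. The 24 h and 72 h arrays overlapped in the replication list and did not in the mitosis list.

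Mcm6, a subunit of the replicative helicase, was at 7.52 to 7.82 in sham, 7.66 to 8.01 at 6 h, 9.37 to 10.44 at 24 h and 8.65 to 9.25 at 72 h. Its contrast was 1.66 ± 0.18 (adjusted p = 4.37e-06), and its lowest 24 h array, replicate 17, was just above the highest at 72 h. Prim1, the small subunit of primase, was at 8.61 at 24 h and 8.43 at 72 h, from 6.12 in sham, and is no peak, although its contrast was 1.64 ± 0.23. Mcm5 (1.85 ± 0.30), Mcm4 (1.52 ± 0.21) and Mcm3 (1.62 ± 0.22) rose, and of these Mcm3 passed both pairwise tests. The replication peaks depended on single arrays: there were 11 without replicate 17 of the 24 h group, 3 without replicate 14, 2 without replicate 15, 1 without replicate 20 of the 72 h group and 2 without replicate 22, and 1 under either spike-in centring. The rises held at 21 except where dim genes were filtered out, which left 12 or 11.

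The E2F motif was searched on both strands as TTTCCCGC, TTTGGCGC or TTTCGCGC, forms that can overlap one another. It was in 40.0% of the 25 replication genes with a promoter, 2.9% of all genes, 6.3% of the peak class and 1.8% of the dip class. It was in 3 of the 6 replication peaks, 5 of the 11 other replication genes that rose and 2 of the 8 that did not pass. For the mitosis genes, the CHR element TTTGAA was in 73.7% against 17.8% of all genes, 13.5% of the peak class and 13.3% of the dip class. Both lists were made of known genes of their process, so these shares too follow in part from that choice. The promoters of Mcm6 and Uhrf1, a protein of DNA methylation maintenance (8.08 to 9.14 at 24 h, 6.20 to 6.63 at 6 h and 7.02 to 8.35 at 72 h), are shown as those of peaks, with the E2F matches in capitals.
Mcm6 (chr1:128359706-128359955, minus strand): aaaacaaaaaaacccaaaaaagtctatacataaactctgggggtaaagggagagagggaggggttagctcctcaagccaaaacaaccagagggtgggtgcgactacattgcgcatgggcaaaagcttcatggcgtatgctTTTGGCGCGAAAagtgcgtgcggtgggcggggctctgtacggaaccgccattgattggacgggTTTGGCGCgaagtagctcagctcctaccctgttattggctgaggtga
Uhrf1 (chr17:56304063-56304312, plus strand): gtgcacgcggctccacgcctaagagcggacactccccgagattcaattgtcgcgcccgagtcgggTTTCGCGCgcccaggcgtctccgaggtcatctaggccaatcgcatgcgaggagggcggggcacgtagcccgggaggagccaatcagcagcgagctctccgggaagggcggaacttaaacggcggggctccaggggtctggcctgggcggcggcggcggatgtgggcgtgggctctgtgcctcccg

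**Figure D4:**
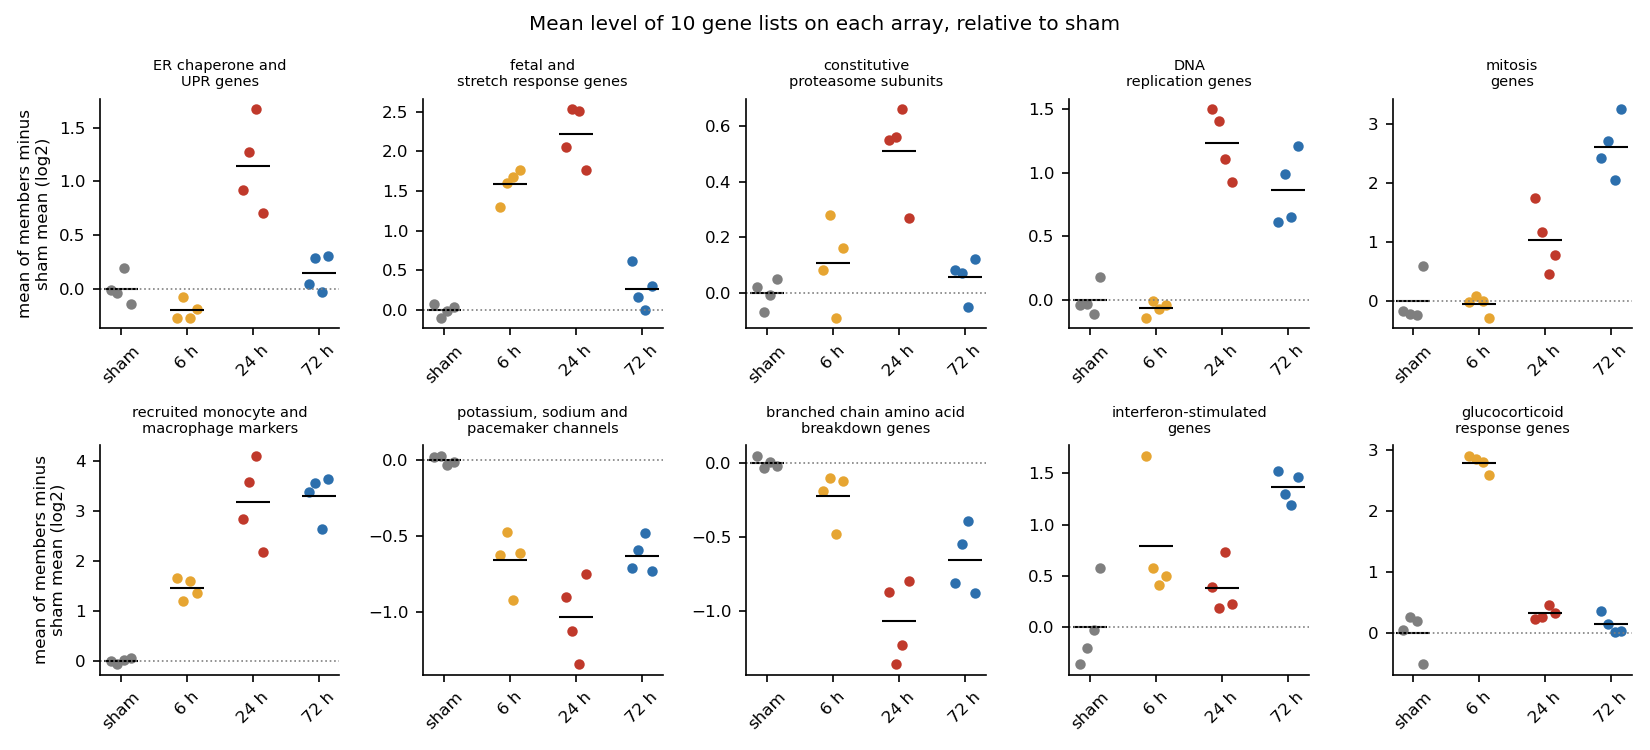
Mean of the measured members of 10 gene lists minus their sham mean (y axis, log2) on each of the 4 arrays per group; points are arrays and horizontal bars group means. Reticulum, stretch and proteasome genes come back near sham at 72 h, replication genes stay up, mitosis genes are highest at 72 h, and interferon-stimulated genes have 1 high array at 6 h.

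Genes of recruited monocytes and macrophages followed several courses. Of 18 markers, 7 rose, 0 fell and 3 were peaks, with a median contrast of 0.45, and 0 of the 18 were below background in every group. Arg1, the arginase of macrophages engaged in repair, was below background on the sham and 6 h arrays (4.12 to 5.26 in all) and at 9.0, 9.83, 11.56 and 8.95 at 24 h and 6.95, 8.63, 6.01 and 8.21 at 72 h. All 24 h arrays were above all 72 h arrays, which varied widely, and the contrast was 3.72 ± 0.46 (adjusted p = 2.21e-05). Chil3, a chitinase-like protein of monocytes and neutrophils, was at 6.61 to 9.31 at 6 h, 8.74 to 12.31 at 24 h and 7.0 to 8.32 at 72 h, so its 6 h and 24 h arrays overlapped, with a contrast of 2.53 ± 0.56. Msr1, a scavenger receptor, had a contrast of 1.53 ± 0.33. Ccr2, the receptor that brings monocytes to tissue, was at 12.20 at 24 h and 12.32 at 72 h, from 7.09 in sham. Clec4e, a receptor for products of dead cells, was at 9.48 at 6 h and 10.18 at 24 h, a difference with an adjusted p of 0.12. The mean of all 18 markers relative to sham was -0.07 to 0.05 on sham arrays, 1.19 to 1.65 at 6 h, 2.18 to 4.11 at 24 h and 2.64 to 3.64 at 72 h. Its part in the peaks of Arg1, Dok2, Msn or the replication genes was not tested. Without replicate 15 or replicate 16 of the 24 h group the list had 1 peak, and without replicate 17 it had 5.

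Of 17 cytokine genes, 2 rose, 2 fell, 2 were peaks and 1 was a dip. Over all genes 10.8% rose, 6.77% fell, 2.84% were peaks and 1.80% dips, so the rises lie near that share. Of the 17, 9 were below background in every group. Il1rn, the antagonist of the interleukin 1 receptor, had means of 3.89 in sham, 7.43 at 6 h, 8.80 at 24 h and 6.33 at 72 h (contrast 1.92 ± 0.33), and its lowest 24 h array, replicate 17 at 7.31, lay among the 6 h arrays. Tnf passed both tests with all its means below background (3.64, 4.11, 5.64 and 4.40). Il6 was lower in the contrast (-1.61 ± 0.41) with means of 10.41 at 6 h, 6.50 at 24 h and 5.83 at 72 h, and is no dip. Neutrophil markers, 16 measured, had list means of 1.58 to 2.82 above sham at 6 h, 0.86 to 2.83 at 24 h and 0.23 to 1.20 at 72 h, with 4 rises and 1 peak. Of the 9124 genes that reached background, 2198 rose when tested alone, a share near that of these markers. T, B and NK cell markers had 0 calls among 10, 7 and 8 measured, and 8, 7 and 8 of them were below background.

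Ion channel genes of the cardiomyocyte were among the largest dips. The transient outward potassium current, which shapes the early repolarization of the action potential, runs through Kv4 pores and their subunit KChIP2. Kcnip2, which encodes KChIP2, was at 13.38, 13.62, 13.43 and 14.15 in sham, 13.30, 12.88, 13.10 and 12.97 at 6 h, 10.53, 9.64, 10.04 and 11.28 at 24 h and 12.74, 12.99, 13.47 and 12.62 at 72 h. Every 24 h array was below every other, and the outer times did not differ from sham past the threshold. The contrast was -2.64 ± 0.24 (adjusted p = 7.38e-07). Kcnd2, the pore gene Kv4.2, was at 9.56 to 9.81 in sham, 9.06 to 9.66 at 6 h, 6.79 to 7.86 at 24 h and 9.48 to 9.87 at 72 h, a contrast of -2.18 ± 0.18 (adjusted p = 4.02e-07). Kcnd3, the pore gene Kv4.3, had a contrast of -0.08 and did not pass.

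Of 19 measured potassium, sodium and pacemaker channel genes, 8 fell, 4 rose, 5 were dips and 1 was a peak, with a median contrast of -0.59. The other dips were Abcc9, a subunit of the ATP-sensitive potassium channel (-0.70 ± 0.12), and the pacemaker channel genes Hcn2 (-0.88 ± 0.17) and Hcn4 (-0.69 ± 0.18), both below background in every group. Kcna5 fell in the contrast and is no dip: it was at 9.51 at 6 h against 7.50 in sham, 7.47 at 24 h and 6.98 at 72 h. Gja5, the connexin 40 gene, was the peak: it was at 5.72 to 6.25 in sham, 5.50 to 5.95 at 6 h, 6.37 to 6.99 at 24 h and 5.47 to 6.01 at 72 h, a contrast of 1.03 ± 0.16 near the background level. Kcnq1 (0.92 ± 0.18) and Kcnj5 (0.88 ± 0.14) were lowest at 6 h, at 7.22 and 9.96 against 8.84 and 11.78 in sham, and had risen again by 24 h. The channel list had 3 dips under hybridization spike-in centring and 3 where dim genes were filtered out.

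Genes of calcium handling were called in both directions: of 15, 3 fell, 3 rose, 2 were dips and 3 were peaks, and 2 were below background in every group. Of the 9124 genes that reached background, 2198 rose, 1324 fell, 671 were peaks and 402 dips when tested alone. The rises and falls of the list lie near those shares. Cacna1c, the pore of the L-type calcium channel, was at 15.40 to 15.85 in sham, 15.02 to 15.27 at 6 h, 13.67 to 14.91 at 24 h and 15.10 to 15.40 at 72 h (contrast -0.92 ± 0.17). Its auxiliary subunit gene Cacnb2 is in the peak class (0.85 ± 0.15) without being above sham: its means were 15.48 in sham, 14.07 at 6 h, 15.21 at 24 h and 14.66 at 72 h, and 24 h minus sham was -0.27 (adjusted p = 0.285). Hrc, a calcium-binding protein of the sarcoplasmic reticulum, dipped by -1.02 ± 0.15. Slc8a1, the sodium-calcium exchanger, was at 13.83 to 14.58 in sham, 13.69 to 14 at 6 h, 14.14 to 14.60 at 24 h and 13.06 to 13.79 at 72 h. Its 24 h arrays overlapped sham, and it was below sham past the threshold at 72 h but not at 6 h (adjusted p = 0.1), with a contrast of 0.80 ± 0.16. Chrm2, the muscarinic receptor of the vagus, had means of 9.73, 9.19, 10.02 and 9.24 in the same order, none of which differed from sham past the threshold. Under either spike-in centring the calcium handling list had 1 peak. Cardiomyocyte markers, 12 measured, had list means relative to sham of -0.15 to -0.09 at 6 h, -0.68 to -0.29 at 24 h and -0.42 to -0.19 at 72 h. Their part in the channel and calcium dips was not tested.

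**Figure D5:**
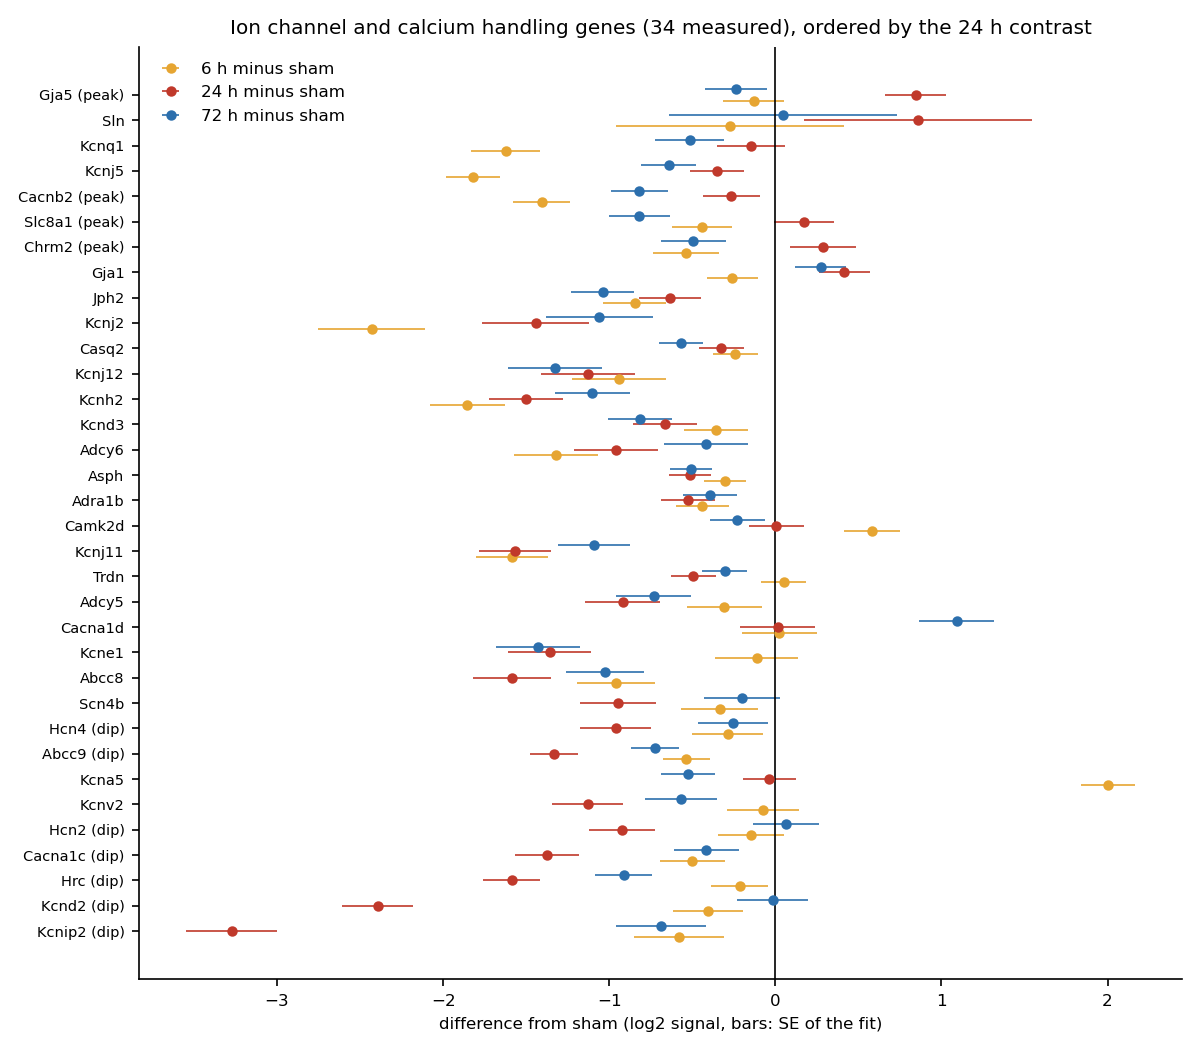
Difference from sham (x axis, log2 signal, with the SE of the fit) at 6 h, 24 h and 72 h for 34 measured genes of the channel and calcium handling lists, in order of the 24 h contrast. Kcnip2 and Kcnd2 at the bottom are low at 24 h alone, Kcnq1 and Kcnj5 are low at 6 h, and Cacnb2 is low at 6 and 72 h. Slc8a1 and Chrm2 lie right of 0 at 24 h and left of it at both other times, and of these differences from sham that of Slc8a1 at 72 h passed the threshold.

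Many fuel genes fell at 24 h as well. Of 17 genes that break down branched chain amino acids, 12 fell, 0 rose and 5 were dips (Aldh6a1, Ppm1k, Auh, Mmut and Ivd), with a median contrast of -0.68. Aldh6a1, a mitochondrial dehydrogenase of valine breakdown, was at 13.88 to 14.17 in sham, 13.45 to 13.95 at 6 h, 12.01 to 12.79 at 24 h and 12.91 to 13.70 at 72 h. All 24 h arrays were the lowest, the 72 h arrays were below sham, and the contrast was -1.0 ± 0.17 (adjusted p = 0.000347). Ppm1k, the phosphatase that activates the branched chain dehydrogenase, fell by 0.97 ± 0.18 on the log2 scale, and Bckdha, a subunit of that enzyme, had a contrast of -0.84 ± 0.16 without passing against 72 h (adjusted p = 0.067). The dips of this list went from 5 to 2 without replicate 15 of the 24 h group or replicate 22 of the 72 h group, to 3 without replicate 16 of the 24 h group or 21 of the 72 h group, to 3 under median centring and to 8 under poly-A centring. Fatty acid oxidation had 14 of 20 measured lower but 2 dips, with the list mean at -0.91 relative to sham at 24 h and at -0.59 at 72 h. Of these genes 6 were lower without replicate 15 of the 24 h group, 9 without replicate 16, 5 under hybridization and 8 under poly-A centring. Of 37 oxidative phosphorylation subunits, 6 were lower and 0 were dips (limma's moderated test), and 0 were below background in every group. Over all genes 6.77% were lower, and of the 9124 genes that reached background 1324 were lower when tested alone. The 6 subunits lie near the latter share. Without replicates 14, 15, 16 or 17 of the 24 h group these 6 became 3, 1, 2 and 13, without replicate 22 of the 72 h group 2, and 0 under either spike-in centring. Cardiomyocyte markers moved with these lists: 5 of the 12 were lower and 2 were dips, and their list mean relative to sham was -0.48 at 24 h, beside -0.52 for oxidative phosphorylation. Without replicates 14, 15 or 16 of the 24 h group 3, 2 and 3 of them were lower, without replicate 7 or 11 of the 6 h group or 21 or 22 of the 72 h group 3, and under hybridization and poly-A centring 2 and 3. Their part in the fall of the fuel genes was not tested.

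Glucose genes went both ways. Of 18, 7 rose, 5 fell, 2 were peaks and 3 were dips. Slc2a4, the insulin-regulated glucose transporter GLUT4, was at 11.94 to 12.03 in sham, 11.03 to 11.61 at 6 h, 9.59 to 10.32 at 24 h and 11.03 to 11.51 at 72 h, a contrast of -1.32 ± 0.16 (adjusted p = 1.55e-05). Pfkm, the muscle phosphofructokinase, dipped by -1.06 ± 0.18 and the muscle enolase gene Eno3 by -0.58 ± 0.15. Pgam1 (1.38 ± 0.19), the phosphoglycerate mutase of most tissues, and the hexokinase gene Hk1 (1.04 ± 0.17) were peaks, and the lactate exporter gene Slc16a3 rose by 1.06 ± 0.31. Pfkfb3, whose product sets the level of the activator of phosphofructokinase, was high at 6 h (9.95) and at 7.78 at 24 h. The rises of this list numbered 4 without replicate 15 of the 24 h group and 3 without replicate 16, and Slc16a3 was lost in both.

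Further metabolic genes were among the 15 largest dips. Ucp3, a mitochondrial uncoupling protein, was at 9.30 to 10.70 in sham, 9.69 to 11.32 at 6 h, 7.17 to 8.42 at 24 h and 9.21 to 10.34 at 72 h (contrast -2.29 ± 0.31). Phkg1, the catalytic subunit of the kinase that starts glycogen breakdown, went from 9.30 in sham and 9.18 at 6 h to 6.61 at 24 h, below background, and 8.47 at 72 h. Trim7, a ligase first known for binding glycogenin, had means of 9.30, 8.50, 6.92 and 8.63 and the carboxylesterase gene Ces1d 9.34, 9.04, 6.60 and 8.28 in the same order. Lrtm1 fell from 16.31 in sham to 13.25 at 24 h with 15.25 at 6 h and 15.94 at 72 h. Asb14, a SOCS box protein, went from 12.95 to 10.03 at 24 h, Rhobtb1 from 11.64 to 9.0 and Pkd2l2, of the polycystin family, from 11.81 to 8.34. For these 4 genes both outer times lay between sham and 24 h. Dpep1, a membrane dipeptidase that was also on the fibroblast marker list, was at 10.08 to 10.98 in sham, 10.95 to 11.10 at 6 h, 8.38 to 9.24 at 24 h and 10.87 to 11.70 at 72 h. The fibroblast marker list, 11 measured, had 5 lower, 1 higher and 2 dips, with list means of -0.38 to 0.00 at 6 h, -0.73 to 0.10 at 24 h and 0.75 to 1.62 at 72 h relative to sham.

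Most clock genes fell at 24 h. Of 17 measured, 11 fell, 2 rose, 5 were dips (Ciart, Per1, Per2, Nr1d2 and Cry2) and 1, Clock, was a peak, with a median contrast of -0.63. Ciart, a repressor of the clock's own activators, was at 9.34, 10.63, 9.66 and 9.52 in sham, 9.10, 9.69, 9.16 and 10.16 at 6 h, 5.45, 4.36, 5.24 and 5.67 at 24 h and 6.72, 7.60, 8.24 and 6.81 at 72 h. Sham and 6 h overlapped, 72 h lay in between, and the 24 h arrays were below background, with a contrast of -3.26 ± 0.31 (adjusted p = 1.25e-06). Per1 was raised at 6 h (9.05 to 9.34 against 6.94 to 7.40 in sham) and low at 24 h (5.96 to 6.37), with 6.45 to 7.15 at 72 h. Per2 (-1.81 ± 0.17), Nr1d2 (-1.06 ± 0.17) and Cry2 (-1.05 ± 0.14), all of the repressing limb, dipped, while Clock (0.76 ± 0.15) and Arntl (0.89 ± 0.24) of the activating limb rose. The hour of day at which hearts were taken is not in the labels, so time since reperfusion and hour of day cannot be told apart. The clock list had 6 falls without replicate 16 of the 24 h group and 7 under hybridization spike-in centring. The E-box CACGTG, searched on both strands, was in 33.3% of clock promoters, 9.3% of all, 13.9% of the peak class and 13.6% of the dip class. The list was made of known clock genes, so its share follows in part from that choice. The shares of the peak and dip classes were alike.

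Glucocorticoid response genes as a list were high at 6 h, with a mean 2.78 above sham, and 0.32 above it at 24 h. This 24 h mean averages members on both sides of sham, with Lcn2 above it and Pdk4 and Zbtb16 below it. Of 12, 10 fell in the contrast, 1 rose and 3 were dips, and the median contrast was -1.01. Pdk4, the kinase that shuts pyruvate out of oxidation, was at 13.09 to 14.25 in sham, 17.17 to 17.58 at 6 h, 11.93 to 12.47 at 24 h and 12.70 to 14.32 at 72 h, so that 24 h lay below sham too. Its contrast was -3.31 ± 0.24 (adjusted p = 1.23e-07). Klf9 (-1.57 ± 0.17) and Tsc22d3 (-1.06 ± 0.18) were the other dips. Fkbp5, a cochaperone of the receptor, was at 10.27 in sham, 14.63 at 6 h, 10.17 at 24 h and 10.04 at 72 h, and Zbtb16 at 12.48, 14.13, 9.54 and 10.85 in the same order. Fkbp5 was therefore a spike at 6 h and not a dip at 24 h. Lcn2, a siderophore-binding protein, rose in the contrast (2.00 ± 0.47, a call lost without both replicates 16 and 17 of the 24 h group), with 9.51 in sham, 16.01 at 6 h, 15.82 at 24 h and 11.63 at 72 h. Timp3, an inhibitor of metalloproteinases, had the course of Pdk4 without being on the list: 10.58 to 10.89 in sham, 12.41 to 12.95 at 6 h, 8.53 to 9.22 at 24 h and 10.26 to 10.63 at 72 h, with a contrast of -2.79 ± 0.14 (adjusted p = 1.22e-09).

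Some interferon-stimulated genes were lower at 24 h than at both other times. Of 18 measured, 7 fell, 0 rose and 3 were dips (Cxcl9, Ifit3 and Ifit1), with a median contrast of -0.60. Ifit3 was at 9.21, 9.46, 9.23 and 10.61 in sham, 12.35, 10.66, 10.41 and 10.65 at 6 h, 9.41, 9.21, 10.35 and 10.00 at 24 h and 11.97, 11.38, 11.38 and 11.67 at 72 h. The 24 h arrays overlapped the sham arrays and were below all arrays at 6 and 72 h, though replicate 16 came close to the lowest 6 h array, and the contrast was -1.57 ± 0.32 (adjusted p = 0.00211). Ifit1 (-1.43 ± 0.32) took the same course at lower levels. The chemokine gene Cxcl9 (-1.62 ± 0.35) had means of 6.92 in sham, 7.82 at 6 h, 6.10 at 24 h and 7.63 at 72 h, none of the 3 times differed from sham past the threshold, and its 6 h and 24 h arrays overlapped. Mx1 (-0.78 ± 0.23) and Oasl2 (-0.78 ± 0.25) were low against 72 h alone. At 24 h Mx1 lay above sham by 0.96 (limma's moderated test, adjusted p = 0.0118). The means of Oasl2 were 7.33 in sham, 7.87 at 6 h, 8.06 at 24 h and 9.81 at 72 h. Both contrasts missed the threshold under hybridization spike-in centring, without replicate 14, 15 or 17 of the 24 h group and without both replicates 16 and 17, and Oasl2 also without replicate 7 or 11 of the 6 h group or replicate 20 or 21 of the 72 h group. Replicate 7 of the 6 h group stood apart, where the list mean was 1.67 above sham. The remaining 6 h arrays were at 0.41 to 0.58, the 24 h arrays at 0.19 to 0.73 and the 72 h arrays at 1.19 to 1.52. Apart from replicate 7, the list mean thus overlapped between 6 h and 24 h and was higher at 72 h. Without replicate 15 of the 24 h group there were 0 dips (limma's moderated test) and 4 falls, without replicate 14 there were 4 falls, and under hybridization spike-in centring 3.

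Ifi207, a PYHIN family gene induced by interferon, and Il33, a cytokine released by damaged cells, were also lower at 24 h than at both other times. Ifi207 was at 9.0 to 10.05 in sham, 12.49 to 13.67 at 6 h, 10.54 to 11.60 at 24 h and 12.33 to 13.12 at 72 h (contrast -1.84 ± 0.24). Il33 was at 5.44 to 6.23 in sham, 9.64 to 10.47 at 6 h, 6.35 to 7.21 at 24 h and 7.68 to 9.87 at 72 h (contrast -2.49 ± 0.29, adjusted p = 1.12e-05). Both were above sham at 24 h (by 1.48 and 1.06) and higher still before and after.

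Myh6, the main adult myosin heavy chain, was a small dip: it was at 17.79 to 17.96 in sham, 17.72 to 18.04 at 6 h, 17.08 to 17.54 at 24 h and 17.98 to 18.07 at 72 h, a contrast of -0.66 ± 0.12 (adjusted p = 0.000546). Tnnt2, cardiac troponin T, had a contrast of -0.10 ± 0.11 (adjusted p = 0.62) and turned to 0.07 under hybridization spike-in centring. Nppa, the atrial natriuretic peptide gene, rose in the contrast (1.41 ± 0.24) and stayed up, with means of 16.96 in sham, 16.97 at 6 h, 19.22 at 24 h and 18.65 at 72 h. The atrial light chain gene Myl4 was at 15.22 on replicate 16 of the 24 h group against 7.34 to 7.93 on the other 24 h arrays, and its contrast of 1.17 ± 0.98 (adjusted p = 0.49) turned to -0.74 without that array. The mean of 10 atrial markers relative to sham was 1.92 on that array and -0.30 to -0.09 on the other 24 h arrays.

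Lists with fewer members in a class gave counts only. Over all genes 10.8% were higher, 6.77% lower, 2.84% peaks and 1.80% dips. Of the 9124 genes that reached background, 2198 were higher and 1324 lower when tested alone. Cholesterol synthesis genes had 9 of 15 higher and 1 peak, and the 19 immediate early genes 5 lower and 0 in a class. The 17 TCA cycle genes had 7 lower and 1 dip, but 3 lower without replicate 15 of the 24 h group, 4 without replicate 16, without replicates 7 or 8 of the 6 h group or without replicate 22 of the 72 h group, 4 under poly-A centring and 1 under hybridization spike-in centring. The 15 apoptosis and p53 target genes had 6 lower and 2 dips, the 17 collagen and matrix genes 3 higher and 3 lower with 1 peak, and the 12 lysosomal genes 2 higher and 3 lower with 1 dip. Every measured member of the collagen and lysosomal lists reached background. The collagen and matrix calls and the lysosomal rises lie near or under the shares among such genes. The 12 monocyte chemokine and receptor genes had 4 higher, 2 lower and 2 peaks.

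Array controls were set in the same contrast. For 24 h minus the average of the other times, the hybridization spike-ins differed by -0.17 (two-sided exact permutation p = 0.432, adjusted p = 0.558 over 6 measures), the poly-A spike-ins by 0.02 (exact p = 0.921) and the positive controls by 0.31 (exact p = 0.00404, adjusted p = 0.0242). The negative controls differed by -0.12 (exact p = 0.0485, adjusted p = 0.146). A drift over time partly cancels in this contrast. The hybridization spike-ins had means of 10.76 at 6 h, 10.23 at 24 h and 10.04 at 72 h. Their 24 h arrays (9.99 to 10.48) lay below all 6 h arrays (10.69 to 10.80). The poly-A spike-ins had means of 7.18, 6.94 and 6.65 in the same order. These p-values therefore do not cover a shift between 24 h and 6 h alone. Hybridization spike-in centring moved the median contrast of all genes to 0.16 and the share of higher genes among all calls from 61.4% to 83.1%. On the first principal component, which held 37.2% of the variance, replicate 17 of the 24 h group scored 10.77 against 35.09 to 40.66 for the other 24 h arrays.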

How the data were processed

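The deposited table holds 1 log2 value per probe set and array, made by the authors with Affymetrix Expression Console, per the submitters' processing notes. The sources used here do not give its version, the summarization method or the log base, and base 2 was taken from what this software writes. The 16 columns were used as deposited (array medians 5.84 to 5.95; number of arrays limits precision, with a median SE of the contrast of 0.159). The design text names another Affymetrix array than the table's identifiers, and the series title other hours than the sample labels; the identifiers and labels were followed. Of 28846 probe sets, 19572 had 1 gene symbol in the platform annotation, 0 several and 9274 none here, and the highest-mean probe set per gene left 19505 genes. Group means over all 16 arrays were fitted with limma 3.58.1 (R 4.3.3) and eBayes, adjusted by Benjamini-Hochberg. The fit was tested on simulated data with equal normal spread in all groups and 50 changed genes per size. Of these, 22%, 98%, 100% and 100% were called by the contrast at log2 0.5, 1, 2 and 3. The shares that entered a class were 8%, 72%, 100% and 100%, without a check of its direction. There were 9 false calls and 2 false class members. These rates may not hold for genes whose spread differs between groups.

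Named are the 15 genes of each class with the largest smaller pairwise difference, non-overlapping 24 h arrays and a group mean at background or above, without predicted genes; up to 5 called members of each list with at least 3 members in a class; and Myh6, Tnnt2, Nppa and Myl4. Members and lists were chosen with earlier results of these data known. Of 889 entries in 56 lists, 817 were measured, 20 through another symbol. The design text gives 4 hearts per group but the labels do not tie each array to an animal, so p-values measure the spread between these samples. Alternatives were quantile normalization, median and spike-in centring, probe set means, filters on dim genes, trend, robust and weighted fits, the 12 reperfused arrays alone and leaving out arrays. Promoters are from RefSeq (GRCm38.p6), matched by Entrez gene ID for 15691 of 19505 genes. Figures were drawn with matplotlib 3.10.9.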

Additional observations from a re-analysis of the deposited data

Results flagged for a closer look

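Among 136 groups of 4 arrays (34 genes in 4 groups), 8 had 1 array standing far from the other 3 by Dixon's criterion, and chance alone marks about 1 group in 20. Ankrd2 was at 4.88 on sham replicate 2 against 3.59 to 3.78 on the others, all below background. Hyou1 was at 9.77 on replicate 7 of the 6 h group against 10.49 to 10.50, and Rhobtb1 at 10.35 on replicate 10 of that group against 11.17 to 11.33. At 24 h, Asb14 was at 9.05 on replicate 15 against 10.26 to 10.45, and Trim7 at 5.95 on replicate 16 against 7.12 to 7.31. Tnnt2 was at 18.78 on sham replicate 5 against 18.95 to 18.98, and at 18.86 on replicate 17 of the 24 h group against 18.76 to 18.77. Myl4 was at 15.22 on replicate 16 of the 24 h group against 7.34 to 7.93, the largest gap of the 8. The peaks and dips among these genes lay in the same class without the array named, which their choice for size and separated 24 h arrays favoured.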

How the results depend on the processing

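The 15 largest peaks and 15 largest dips kept their class under each of 28 alternatives, except 1 peak that the filter at the median removed from the test. These genes were picked in the same data for large differences and separated 24 h arrays. That choice favoured keeping the class, so the result says nothing of the other class members. Counts moved more. Hybridization spike-in centring gave 3181 higher and 645 lower genes (83.1% of calls higher, against 61.4%), 342 peaks and 175 dips, of which 225 and 149 were among the 554 and 351. Poly-A centring gave 250 peaks, 195 of them among the 554. Requiring 2-fold left 326 higher and 314 lower genes, 90 peaks and 97 dips. Leaving out 1 array in turn gave 1394 to 2396 higher and 917 to 1415 lower genes, 326 to 828 peaks and 230 to 427 dips, the lowest without replicate 15 of the 24 h group. The other alternatives stayed within 1.5 times. The contrast of Tnnt2 turned to 0.07 under hybridization spike-in centring, and that of Myl4 ranged from -0.74 (without 24 h replicate 16) to 1.89 over single arrays left out and was -0.91 without both replicates 16 and 17. No paired analysis was possible because the groups share no replicate numbers.

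The causes of these moves were not tested. Of the genes tested, 10381 had every group mean below background, where the size of a difference depends on the background.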

Other observations

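Of 2634 transcript clusters without a gene name here, 159 (6.04%) had a higher and 98 (3.72%) a lower contrast, and 31 (1.18%) were peaks and 21 (0.797%) dips, smaller shares than among named genes.

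The ATF4 composite element TGATGNAA, searched on both strands, was in 36.4% of the 11 aminoacyl-tRNA synthetase genes with a promoter and in 4.0% of all genes, but in 2.2% of the peak class and 5.0% of the dip class. Both synthetase peaks with a promoter, Iars and Yars, had it, as did Tars, which rose, and Gars, which did not pass. The other synthetase peaks, Rars, Hars and Lars, had no promoter entry. In the ATF4 list it was in 8 of the 22 genes with a promoter (36.4%). These were Asns, Chac1, Fgf21, Nupr1, Pck2, Slc7a11, Trib3 and Vldlr, of which Vldlr was the dip and Nupr1 and Chac1 fell. The CRE TGACGTCA was in 4.7% of the peak class, 1.1% of the dip class and 2.6% of all genes. The AP-1 motif TGANTCA was in 7.0%, 10.0% and 8.3%. The ATF4 list was made of known targets, so its share follows in part from that choice. All these shares are descriptions of letters in a 300-base window.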
